A study of Homo sapiens with 6 samples.

Results

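The genes described here are the glucose transporter GLUT1 (SLC2A1) and 9 enzymes of glycolysis, HK1, HK2, PFKP, ALDOA, GAPDH, PGK1, ENO1, PKM and LDHA. They were taken by gene symbol and not by a rule on their values, but earlier results of these data were known when they were chosen. Each matched a single Ensembl gene of the count table, so that they were 10 of its 19937 genes. All 10 were among the 12450 genes with enough counts to be tested. The counts came from poly(A) RNA of U2OS, an established human osteosarcoma cell line grown with serum. Cells of 1 group (shSQLE) carried a lentiviral short hairpin RNA against SQLE, the squalene epoxidase of cholesterol synthesis, and cells of the other (shControl) a scrambled hairpin in the same pGIPZ vector, both kept under puromycin at 2 μg/mL to select carriers. There were 3 libraries of each, which may be technical replicates, since nothing says that they came from separately infected cultures; p-values therefore measure the spread among these libraries. The hairpin cells were selected for the drug marker. Whether they were pools or clones, and which of the study's hairpins the RNA came from, is not given in the sources used here.

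Glucose enters most cultured cells through GLUT1 and is trapped by hexokinases. It is then cut by phosphofructokinase and aldolase into 3-carbon sugars, which GAPDH, PGK1, enolase and pyruvate kinase carry to pyruvate, and lactate dehydrogenase turns pyruvate into lactate. Many tumour cells make lactate in this way even with oxygen at hand. Signalling through PI3K, Akt and mTOR, the hypoxia factor HIF1 and MYC are known to raise transcription of these genes, and the study followed PI3K, Akt and mTOR as proteins in the same line.

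HIF1 binds short DNA elements with the core ACGTG or GCGTG, and such cores were looked for, on both strands, in the 250 bases before the transcription start of each gene in the RefSeq table (GRCh38.p14), taking the start nearest to that of the canonical transcript (217, 422 and 747 bases away for HK1, PFKP and GAPDH, and at it for the others). The window of GAPDH, at chr12:6535014-6535263 (+), lies inside its gene, which starts at 6534512. For HK1 and PFKP the distance does not say on which side of the canonical start the window lies. ACGTG was present in 5 of the 10 genes, GAPDH among them. Either core was present in 7 of them, GAPDH and HK1 among them. Of all 35116 such windows, 18.5% held ACGTG and 43.2% either core. LDHA held 5 matches to ACGTG, HK2 and PGK1 2 each with 1 GCGTG, and SLC2A1, PFKP and PKM held neither in this window. At least 3 matches to ACGTG, as in LDHA, were found in 1.55% of all windows. A CACGTG counts as 2 matches, because its strands read alike. The windows of HK2, PGK1 and LDHA, and that of LOX, which held 4 matches, are shown 5′ to 3′ with the cores on either strand in capitals. LOX is a HIF target outside glycolysis, chosen because it was called lower in these data, a call kept in 1 of the 6 fits without 1 library. No window of another HIF target outside glycolysis is shown, and a link between the matches and the level of LOX was not tested. They lie at chr2:74833877-74834126 (+ strand) for HK2, chrX:78103998-78104247 (+) for PGK1, chr11:18394313-18394562 (+) for LDHA and chr5:122078260-122078509 (- strand) for LOX.
HK2: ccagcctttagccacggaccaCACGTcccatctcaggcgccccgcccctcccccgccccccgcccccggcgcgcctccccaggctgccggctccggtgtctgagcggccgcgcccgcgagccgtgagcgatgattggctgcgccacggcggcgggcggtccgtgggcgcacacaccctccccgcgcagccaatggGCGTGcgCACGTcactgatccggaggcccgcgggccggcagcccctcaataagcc
PGK1: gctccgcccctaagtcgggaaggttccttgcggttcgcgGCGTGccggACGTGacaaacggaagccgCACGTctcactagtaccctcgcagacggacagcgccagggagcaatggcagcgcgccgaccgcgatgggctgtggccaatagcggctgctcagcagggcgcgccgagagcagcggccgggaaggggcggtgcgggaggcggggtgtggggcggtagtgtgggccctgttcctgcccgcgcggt
LDHA: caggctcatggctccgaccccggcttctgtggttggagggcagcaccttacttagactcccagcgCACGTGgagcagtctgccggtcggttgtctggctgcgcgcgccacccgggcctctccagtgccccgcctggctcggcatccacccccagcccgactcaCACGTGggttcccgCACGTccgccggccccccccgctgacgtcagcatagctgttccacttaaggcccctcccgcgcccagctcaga
LOX: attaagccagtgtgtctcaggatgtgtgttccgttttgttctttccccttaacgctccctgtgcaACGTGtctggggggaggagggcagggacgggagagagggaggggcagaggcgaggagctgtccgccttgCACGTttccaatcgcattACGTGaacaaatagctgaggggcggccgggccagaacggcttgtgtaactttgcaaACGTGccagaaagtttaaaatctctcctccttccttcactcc
A match is a run of letters and not a measured binding site.

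The libraries held between 12212378 and 14393292 counts on genes. SQLE itself stood at 1349, 1867 and 1924 normalized counts in the libraries 1, 2 and 3 of shControl, and at 229, 204 and 219 in those of shSQLE. A normalized count is the count scaled to the mean effective library size by edgeR's TMM factors. Vimentin, SPARC and CD44 were abundant in every library, as were the keratins KRT8 and KRT18. Of the other bone and mesenchymal markers, RUNX2 had 149 to 245 counts in shControl and 146 to 185 in shSQLE, whereas COL1A2 and ALPL had at most 6 and 2. COL1A1, a collagen gene that the study used as a marker of stromal cells, had 147 to 184 counts in shControl and 103 to 106 in shSQLE. It was called lower (-0.65, adjusted p = 0.0452, edgeR). Of the epithelial markers beside these keratins, EPCAM had 46 to 55 counts in shControl and 57 to 76 in shSQLE, while CDH1 and KRT19 had at most 2 and 3. Of the markers of other cells, PTPRC, CD3E, NEFM and INA had 0 counts. The summed normalized counts of the 4 haematopoietic genes ran from 8.83 to 10.4 in shControl and from 4.11 to 12.7 in shSQLE. Those of the 3 endothelial genes ran from 12.7 to 15.7 and from 2.06 to 6.90, and the part of either in the results was not tested. The library of shControl replicate 1 stood apart: over all genes tested its log2 level against the other controls had a median of 0.53 in the 3112 genes richest in GC and -0.56 in the 3112 poorest, and of 0.47 in the 3112 with the shortest transcripts and -0.43 in the 3112 with the longest. In shSQLE replicate 3, against the other shSQLE libraries, the same medians went the opposite way and were smaller, at -0.19 and 0.14 for GC and -0.19 and 0.18 for length.

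The question put to these genes was whether silencing SQLE changed them. With all 6 libraries, none of the 10 passed the test. At an adjusted p under 0.05 (edgeR's quasi-likelihood test, Benjamini-Hochberg adjustment over the 12450 genes), 0 of the 10 were lower and 0 higher in shSQLE, against 2.84% of all genes tested called lower and 0.369% called higher; DESeq2 also called 0. At an unadjusted p under 0.05 the count was again 0, against 14.7% of all genes. In none of the 10 did the groups separate, whereas they did not overlap in 22.1% of all genes tested. The log2 fold changes were below 0 for 5 genes and above 0 for 5, from -0.29 (HK2) to 0.27 (ALDOA), with a median of -0.01 beside -0.01 for all genes tested. In bulk RNA, a change in every cell and a change in some of the cells cannot be told apart.

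**Figure D1:**
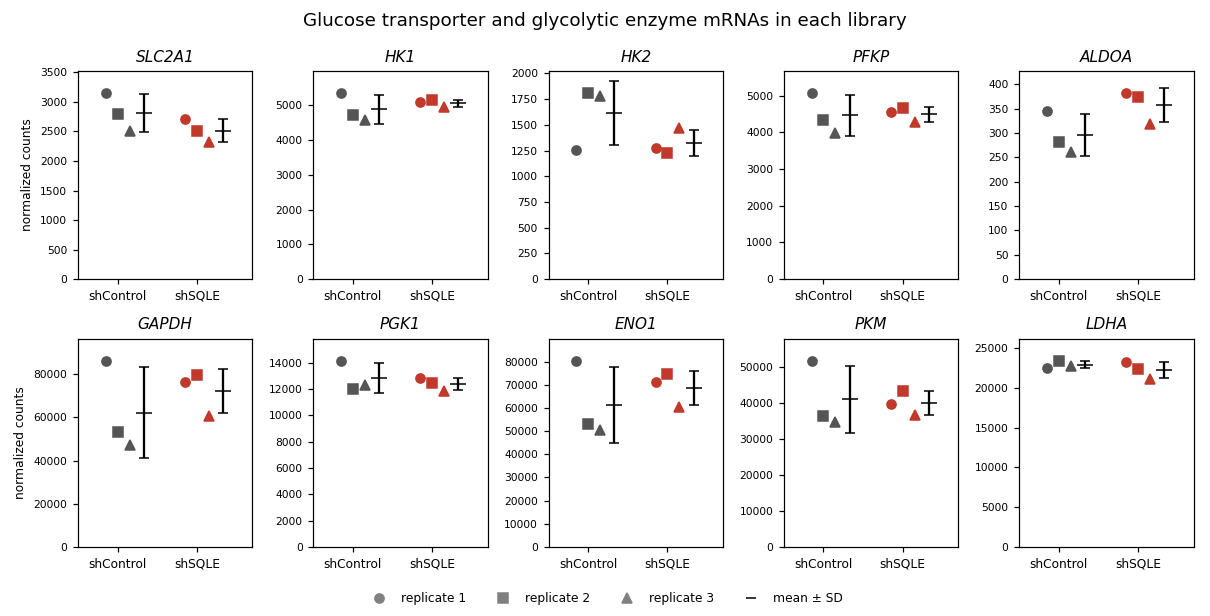
Normalized counts (y axes from 0) of the 10 genes in the 3 shControl (grey) and 3 shSQLE (red) libraries, with the replicate number by symbol and the mean ± SD (n = 3) in black. The groups overlap in every panel, and in GAPDH, ENO1 and PKM the circle of shControl replicate 1 lies far above the other 2 controls.

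The 10 genes covered a wide range of levels, from GAPDH and ENO1, which were among the most abundant mRNAs tested, to HK2 and ALDOA. Together the 10 genes took 1.91%, 1.48% and 1.41% of all counts in the shControl libraries, in order of their numbers, and 1.72%, 1.76% and 1.54% in shSQLE, or 1.60% ± 0.275 against 1.67% ± 0.121 (SD, n = 3 each), a difference of 0.0740 percentage points that is smaller than the SD of either group. GAPDH, ENO1 and PKM alone made up 73.3% to 80.8% of the counts of the 10. Levels between genes were compared per kilobase of the canonical transcript. On that scale of normalized counts per kb, GAPDH had a mean of 52316 over the 6 libraries and ranked 11 of 12447 genes. It was followed by ENO1 (36490, rank 21), PKM (17587, rank 63), LDHA (10069, rank 99), PGK1 (2619, rank 345), PFKP (1707, rank 561), HK1 (1379, rank 714), SLC2A1 (788, rank 1290), HK2 (261, rank 3608) and ALDOA (199, rank 4357). Of the neighbours in this order, GAPDH with ENO1 and HK2 with ALDOA overlapped in their ranges over the libraries, and the other neighbours did not. The level of ALDOA may be partial, for the reason given with its values.

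GLUT1 (SLC2A1, ENSG00000117394, chromosome 1, 42925353 to 42958893, - strand) is the main basal glucose transporter. Its normalized counts were 3149, 2802 and 2502 in shControl, in the order of replicate numbers used throughout, and 2712, 2509 and 2318 in shSQLE. The groups overlapped, with the highest value in shControl replicate 1 and the lowest in shSQLE replicate 3. The means were 2818 ± 324 and 2513 ± 197 (SD, n = 3 each), which gave -0.17 on the log2 fold change scale, with a 95% interval from -0.45 to 0.12 (adjusted p = 0.630, edgeR).

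Among the other glucose transporters, GLUT3 (SLC2A3, ENSG00000059804, chromosome 12, 7919230 to 8019007, - strand), fell. It is a high-affinity transporter that neurons rely on. Its normalized counts were 669, 692 and 616 in shControl and 369, 420 and 406 in shSQLE, so that every shSQLE library lay below every control. The means were 659 ± 38.8 and 398 ± 26.2 (SD, n = 3 each), and the log2 fold change was -0.73 ± 0.12 (SE; edgeR, adjusted p = 0.0181). The call was kept when shControl replicate 1 (-0.72) or replicate 3 was left out, and was lost without any 1 of the other 4 libraries, where the log2 fold change stayed between -0.67 and -0.76. SLC2A6, a further transporter, named after its values were seen, ranged from 393 to 647 in shControl and from 326 to 403 in shSQLE, with overlap, at -0.38 (interval from -0.88 to 0.11). SLC2A10, also named afterwards, had 37.0, 49.7 and 71.6 in shControl and 18.6, 30.6 and 21.6 in shSQLE. Its groups did not overlap, at -1.165 (interval from -1.895 to -0.434), but it did not pass over all genes (adjusted p = 0.114, edgeR). SLC2A4 and SLC2A8 overlapped, at 0.19 and 0.15. Of the counts of SLC2A1 and SLC2A3 together, without SLC2A6, SLC2A1 made up 88.0%, 85.7% and 85.1% in shSQLE against 82.5%, 80.2% and 80.3% in shControl. The difference of 5.28 percentage points had an exact two-sided permutation p = 0.1, the smallest that 3 against 3 libraries allow, and 0.3 when adjusted over the 6 shares compared.

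Hexokinases phosphorylate glucose, HK1 as the housekeeping form and HK2 as the form most often raised in tumours. HK1 (ENSG00000156515) had 5345, 4723 and 4568 normalized counts in shControl and 5090, 5135 and 4942 in shSQLE. The shSQLE values all lay inside the range of the controls, with a log2 fold change of 0.05 and an interval from -0.18 to 0.29. HK2 (ENSG00000159399, chromosome 2, 74834127 to 74893359, + strand) had 1254, 1809 and 1776 in shControl and 1278, 1223 and 1466 in shSQLE. Here shControl replicates 2 and 3 were above all shSQLE libraries, while shControl replicate 1 lay among them. The log2 fold change of HK2 was -0.29, the lowest of the 10, with an interval from -0.66 to 0.09 (adjusted p = 0.494, edgeR).

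As a share of the counts of HK1 and HK2 together, HK2 came to 19.0% in shControl replicate 1, to at least 27.7% in the other controls, and to 20.1%, 19.2% and 22.9% in shSQLE. The difference was -4.17 percentage points (exact permutation p = 0.4, two-sided). It was -7.12 without shControl replicate 1, -2.77 without shControl replicate 2 and -2.62 without shControl replicate 3. HKDC1, a further hexokinase of low level, had 159, 172 and 188 normalized counts in shControl and 126, 123 and 112 in shSQLE. Its groups did not overlap, but its log2 fold change of -0.52 (interval from -0.85 to -0.19) did not pass over all genes (adjusted p = 0.117, edgeR).

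Phosphofructokinase commits the sugar to glycolysis, and PFKP, its platelet-type subunit, held most of the counts of its 3 forms. PFKP (ENSG00000067057) had 5075, 4341 and 3976 normalized counts in shControl and 4552, 4676 and 4276 in shSQLE. The groups had nearly the same mean, 4464 ± 560 and 4501 ± 205 (SD, n = 3 each), and the interval of the log2 fold change of 0.01 ran from -0.26 to 0.29. PFKP made up 58.4% ± 1.68 of the counts of PFKP, PFKL and PFKM in shControl and 57.9% ± 0.600 in shSQLE (SD, n = 3 each; exact permutation p = 0.8, two-sided). The difference of -0.536 points turned to 0.411 without shControl replicate 2. The muscle form PFKM ranged from 1365 to 1442 in shControl and from 1524 to 1679 in shSQLE without overlap, at 0.19 (adjusted p = 0.442, edgeR), and the liver form PFKL stood at -0.10.

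ALDOA (ENSG00000149925, chromosome 16, 30064164 to 30070457, + strand), the main aldolase of most cells, had only 345, 282 and 262 normalized counts in shControl and 382, 374 and 318 in shSQLE. In GENCODE v44, 89.8% of the bases of its canonical transcript also lie in exons of ENSG00000285043, a protein-coding gene on the same strand, whose own row held 30 to 51 counts in each library. How reads that fall on both genes were counted is not given in the sources used here, so the values of ALDOA cannot be read as the whole of its mRNA. Its log2 fold change was 0.27, the highest of the 10, with an interval from -0.08 to 0.63 (adjusted p = 0.491, edgeR), and shControl replicate 1 lay above shSQLE replicate 3. Its share among the counts of ALDOA and ALDOC rests on the same partial count, at 63.2% ± 2.78 in shControl and 61.4% ± 2.53 in shSQLE (SD, n = 3 each; exact permutation p = 0.5, two-sided).

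GAPDH (ENSG00000111640, chromosome 12, 6534512 to 6538374, + strand) makes NADH from the 3-carbon sugar and is widely used as a reference gene. It had 86137, 53157 and 47084 normalized counts in shControl and 76518, 79746 and 60716 in shSQLE. The control libraries alone spanned the whole range of the shSQLE libraries. The means were 62126 ± 21014 and 72327 ± 10184 (SD, n = 3 each), with a log2 fold change of 0.22 and an interval from -0.31 to 0.75, the widest of the 10. ENO1 (ENSG00000074800, enolase 1, which makes phosphoenolpyruvate) had 80293, 53133 and 50592 in shControl and 71038, 74600 and 60275 in shSQLE, so that its libraries stood in the same order as those of GAPDH. Its log2 fold change was 0.16, with an interval from -0.28 to 0.60.

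The share of ENO1 in the counts of ENO1 and the neuronal enolase ENO2 was 98.8%, 98.7% and 98.6% in shControl and 99.0%, 99.0% and 98.9% in shSQLE. The groups did not overlap, with a difference of 0.298 percentage points (exact permutation p = 0.1, two-sided, the smallest possible, and 0.3 adjusted over the 6 shares). ENO2 itself overlapped between groups, at -0.19 (interval from -0.54 to 0.16).

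PKM (ENSG00000067225), the pyruvate kinase of most tissues, whose M1 and M2 splice forms are not told apart in gene counts, had 51789, 36591 and 34918 normalized counts in shControl and 39930, 43319 and 36681 in shSQLE. Again shControl replicate 1 was the highest of the 6 libraries, and the log2 fold change was -0.04, with an interval from -0.42 to 0.34. PGK1 (ENSG00000102144), which makes the first ATP of the pathway, differed less between libraries, with 14135, 12033 and 12332 in shControl and 12808, 12427 and 11888 in shSQLE. Its log2 fold change was -0.05, with an interval from -0.29 to 0.19.

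LDHA (ENSG00000134333, chromosome 11, 18394560 to 18408425, + strand) makes lactate and was the steadiest of the 10. It had 22502, 23384 and 22809 normalized counts in shControl and 23209, 22366 and 21122 in shSQLE. The SD of its log2 CPM over the 6 libraries was 0.053, rank 58 from the smallest of the 2990 genes with a mean of at least 1000 normalized counts, whereas that of GAPDH was 0.35, rank 2652; the median of these genes was 0.20. The log2 fold change of LDHA was -0.04, with an interval from -0.26 to 0.17. LDHA made up 97.4% ± 1.00 of the counts of LDHA and LDHB in shControl and 97.1% ± 0.399 in shSQLE (SD, n = 3 each; exact permutation p = 0.8, two-sided). LDHB is less certain, since 76.5% of its canonical transcript lies in exons of ENSG00000285854 on the same strand, a gene with at most 1 count.

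Of the steps that none of the 10 genes covers, GPI stood at 0.07, TPI1 at 0.14 and PGAM1 at 0.20 on the log2 fold change scale. None of them passed the adjusted p with all libraries. All 3 passed it without shControl replicate 1, at 0.28, 0.43 and 0.27, where 15.6% of all genes were called higher. With smooth trends on GC and transcript length removed within each library, none of them passed, at 0.085, 0.09 and 0.139. Their adjusted p-values were then 0.720, 0.422 and 0.133 (edgeR), where 7.13% of all genes were called higher. These 3 were named because they complete the pathway. PGAM1, the phosphoglycerate mutase, ranged from 7141 to 8292 normalized counts in shControl and from 8300 to 9069 in shSQLE, so that the groups did not overlap by a narrow margin. TPI1, the triose phosphate isomerase, had 18020, 10989 and 10651 in shControl and 14677, 16118 and 12871 in shSQLE, and thus the same high value in shControl replicate 1 as GAPDH and ENO1.

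The spread among the controls decides what can be said of these genes. On the log2 CPM scale, shControl replicate 1 lay above the mean of the other controls by 0.78 in GAPDH, 0.63 in ENO1, 0.54 in PKM, 0.34 in ALDOA, 0.29 in PFKP, 0.25 in SLC2A1, 0.21 in PGK1 and 0.20 in HK1. It lay near that mean in LDHA (-0.04) and below it in HK2 (-0.52). The canonical transcripts of GAPDH, ALDOA, ENO1 and PKM have 1285, 1640, 1781 and 2305 nt and a GC content of 56.1%, 60.6%, 54.4% and 56.6%. That of HK2 is the longest of the 10, with 5626 nt and 50.5% GC, and that of LDHA has 2241 nt and 41.8% GC. PGK1, at 4812 nt and 42.8% GC, is long and poor in GC and yet lay above the other controls in this library, against the direction of the trend over all genes. Among the 3846 genes tested that are in both the shorter and the GC-richer part, split at the medians, the median for the same library was 0.51.

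Without shControl replicate 1, 4 of the 10 genes passed the adjusted p of 0.05 (edgeR). On the log2 scale, HK2 fell by 0.44 ± 0.09 (SE, adjusted p = 0.00346), and was 1 lower gene of the 10 where 18.3% of all genes tested were called lower. GAPDH rose by 0.53 ± 0.11 (SE, adjusted p = 0.00420), ENO1 by 0.41 ± 0.10 (SE, adjusted p = 0.00763) and ALDOA by 0.40 ± 0.12 (SE, adjusted p = 0.0226). They were 3 higher genes of the 10 where 15.6% of all genes were called higher. That fit compares 3 shSQLE libraries with 2 controls that stood close to each other, and none of these 4 genes was called in any of the other 5 fits without 1 library. The other 6 genes were not called in it either, with LDHA at -0.05 and PGK1 at 0.02. With all 6 libraries, and with smooth trends on GC and transcript length removed within each library, a fit chosen after seeing the data, 0 of the 10 genes were called, where 10.4% of all genes were lower and 7.13% higher, and GAPDH, ENO1, ALDOA and HK2 stood at 0.17, 0.13, 0.21 and -0.25.

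**Figure D2:**
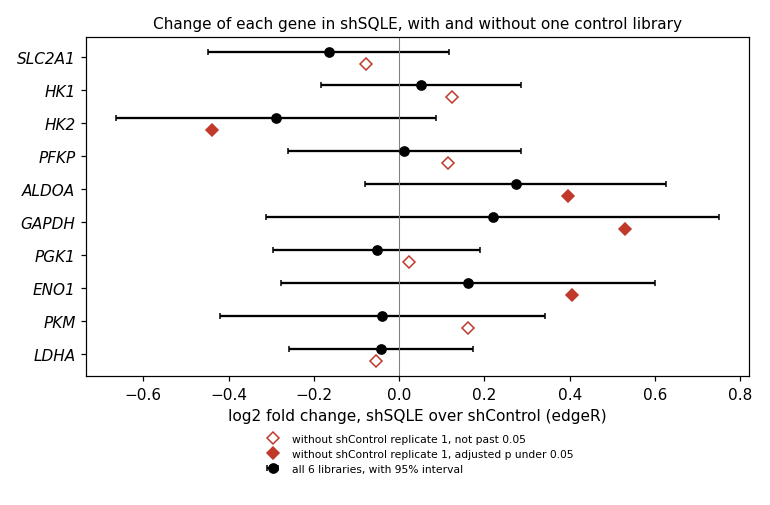
Log2 fold change of shSQLE over shControl for each gene with all 6 libraries (black, with the 95% interval of edgeR's fit) and without shControl replicate 1 (red diamonds, filled where the adjusted p is under 0.05). Every interval from all libraries spans 0, and 4 diamonds are filled, HK2 at -0.44 and ALDOA, GAPDH and ENO1 from 0.40 to 0.53.

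The genes around glycolysis were taken as 7 lists by role, 136 genes in all, of which 107 were tested. Of these, 2 were lower and 1 higher at the adjusted p (edgeR), against 2.84% and 0.369% of all genes, and the median log2 fold change was -0.04. Of the 18 other transporters and isozymes of glycolysis that were tested, SLC2A3 was the only call, and the median was 0.10. Of the 9 regulators, among them the PFKFB enzymes that set the level of the activator fructose 2,6-bisphosphate, 1 was called: MYC, a factor that drives growth and glycolytic genes. It rose from 381, 354 and 337 normalized counts in shControl to 571, 591 and 545 in shSQLE. No library of either group overlapped the other, and the log2 fold change was 0.67 ± 0.12 (SE; edgeR, adjusted p = 0.0230). It kept its call in 1 of the 6 fits without 1 library, that without shControl replicate 1, at 0.72, and stayed between 0.64 and 0.72 in all 6.

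Other regulators were chosen after their values were seen. TXNIP, the glucose-induced protein that limits glucose uptake, ranged from 129 to 141 in shControl and from 73.9 to 96.0 in shSQLE, at -0.68 (adjusted p = 0.0721, edgeR). PFKFB4 stood at -0.50 and PFKFB3 at -0.30, again without overlap of the groups and without passing over all genes (adjusted p = 0.126 and 0.213, edgeR). The median over the 9 regulators was -0.27, with 6 below 0.

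Of the 19 genes tested that handle pyruvate and lactate, 0 were called and the median was 0.04. Their smallest p belonged to SLC16A1 (MCT1), which carries lactate across the plasma membrane. Its normalized counts were 3405, 4893 and 4837 in shControl and 7170, 6631 and 7468 in shSQLE. Every shSQLE library was above every control, with a log2 fold change of 0.69 that narrowly missed the threshold (interval from 0.34 to 1.05, adjusted p = 0.0563, edgeR). It passed with DESeq2 (0.71), with DESeq2's size factors in edgeR (0.71), with no filter (0.70), with the replicate number as a block (0.71) and with GC and length trends removed (0.72). Of the 6 fits without 1 library it passed in 1, that without shControl replicate 1 (0.54). With library size only, upper quartile factors or at least 10 counts in every library it did not pass. The lactate exporter of hypoxic cells, SLC16A3 (MCT4), chosen after its values were seen, went the other way, from 1423, 894 and 787 to 701, 726 and 568, at -0.64 (adjusted p = 0.237, edgeR); 18.6% of its canonical transcript lies in exons of CSNK1D on the opposite strand. PDP1, a phosphatase that activates pyruvate dehydrogenase and was also chosen after the fact, had 771, 1241 and 1271 in shControl and 635, 532 and 663 in shSQLE, at -0.84 (adjusted p = 0.0753, edgeR).

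The 10 genes tested of the pentose phosphate pathway, which branches off at glucose 6-phosphate to make NADPH and ribose, held 0 calls, with 8 of them above 0 and a median of 0.16. RPIA, the ribose phosphate isomerase, ranged from 662 to 753 in shControl and from 967 to 1029 in shSQLE, at 0.51 (interval from 0.26 to 0.76, adjusted p = 0.0506, edgeR). It passed with GC and length trends removed (0.42), with DESeq2 (0.52) and with 2 other sets of size factors (0.52 each). Of the 6 fits without 1 library it passed in 1, that without shControl replicate 1 (0.46). With library size only, other filters or the replicate block it did not pass. Without shControl replicate 1, 6 of these 10 genes were called higher and 0 lower, where 15.6% of all genes were higher and 18.3% lower. With GC and length trends removed, 2 of the 10 were higher and 0 lower, where 7.13% of all genes were higher and 10.4% lower. The 14 genes tested of gluconeogenesis and glycogen also held 0 calls, with a median of 0.03. Their smallest p belonged to GYG1, the primer protein of glycogen, at 0.31 (adjusted p = 0.184, edgeR), whose canonical transcript lies to 27.5% in exons of HLTF on the opposite strand.

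The HIF factors and their regulators held 0 calls among 11 genes tested, with a median of -0.11. HIF1A, named after its values were seen, had 1941, 3886 and 4032 normalized counts in shControl and 3154, 2595 and 3411 in shSQLE, so that shControl replicate 1 was lowest and the other controls highest, at -0.11 (interval from -0.71 to 0.50). EPAS1, which encodes HIF2α, had 618, 825 and 825 in shControl and 520, 497 and 493 in shSQLE, at -0.59 (interval from -0.92 to -0.26, adjusted p = 0.0798, edgeR). It passed with DESeq2 (-0.57) and with GC and length trends removed (-0.56). Of the 6 fits without 1 library it passed in 1, that without shControl replicate 1 (-0.71). With other size factors or filters or the replicate block it did not pass. Without shControl replicate 1, 5 of the 11 genes were lower and 0 higher, where 18.3% of all genes were called lower and 15.6% higher. The median of the 11 was then -0.25, and HIF1A, also called, stood at -0.37. With GC and length trends removed, 1 of the 11 was lower and 0 higher, where 10.4% of all genes were lower and 7.13% higher. The median was then -0.043, and HIF1A, at -0.043, was not called (adjusted p = 0.857, edgeR). Of the 26 HIF targets outside glycolysis that were tested, 21 were below 0, with a median of -0.24, where 6420 of all 12450 genes were below 0, and 1 was called lower, beside 2.84% of all genes. That was LOX, a collagen crosslinking enzyme, which fell from 254, 346 and 346 to 202, 162 and 161, with every shSQLE library below every control (log2 fold change -0.85 ± 0.18 SE; edgeR, adjusted p = 0.0442).

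LOX kept its call in 1 of the 6 fits without 1 library, that without shControl replicate 1, at -0.98, and 2.72% of its canonical transcript lies in exons of SRFBP1 on the opposite strand. Among the other targets, VEGFA, the endothelial growth factor, stood at 0.03 (interval from -0.31 to 0.38), ANGPTL4 at -0.81, DDIT4 at -0.44 and BNIP3 at -0.24. P4HA2, the prolyl hydroxylase of collagen, stood at -0.74 and NDRG1 at -0.90 (adjusted p = 0.0595 and 0.212, edgeR). None of these 6 passed the threshold, and all were chosen after their values were seen. Without shControl replicate 1, where 18.3% of all genes were called lower and 15.6% higher, 11 of the 26 targets were lower and 1 higher. Their median was -0.27. With the trends on GC and length removed, 9 of the 26 were lower and 0 higher, where 10.4% of all genes were called lower and 7.13% higher.

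**Figure D3:**
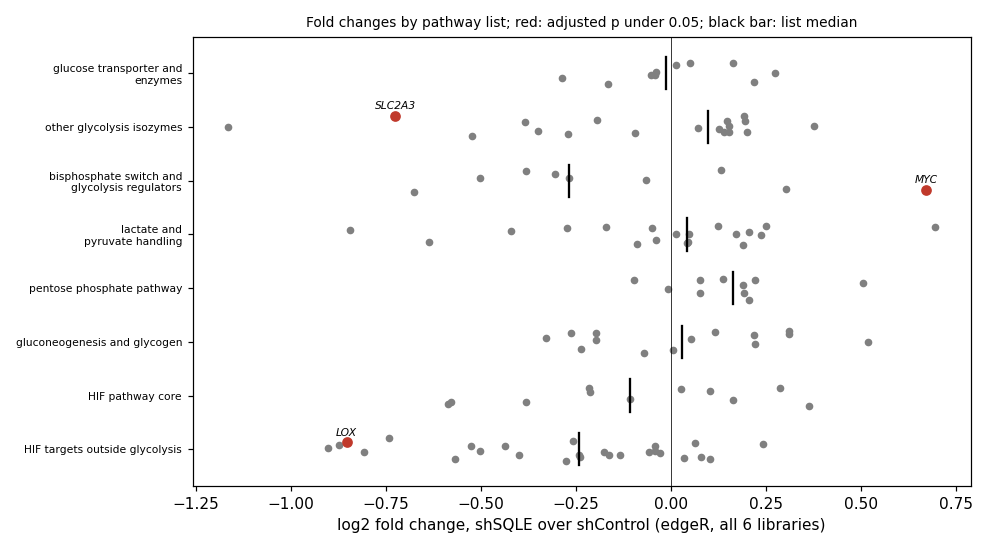
Log2 fold change (x axis, edgeR, all 6 libraries) of every tested gene of the 10 and of the 7 lists around them, with calls at an adjusted p under 0.05 in red and list medians as black bars. The 10 genes lie within -0.29 and 0.27, and SLC2A3, LOX and MYC are the called genes.

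HK2 and ALDOA had the smallest p of the 10. The genes nearest to HK2 in their course over the 6 libraries, by the root mean square difference of mean-centred log2 CPM among 9878 other genes, were ATP2A2 (0.013), CALD1 (0.019) and SNX9 (0.026), where the SD of HK2 itself was 0.25. Those nearest to ALDOA were KCNG1 (0.025), SF3B6 (0.026) and PHF5A (0.026), with an SD of ALDOA of 0.22. None of these 6 passed the adjusted p, which follows from their being chosen for nearness to HK2 and ALDOA, which did not pass.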

How the data were processed

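Poly(A) RNA of U2OS cells was sequenced as read pairs of 151 bp in 3 shSQLE and 3 shControl libraries. Per the labels, the authors used fastp 0.20.0, STAR 2.7.9a and featureCounts 2.0 with hg38, and the deposited values are raw counts per Ensembl gene, not normalized. The annotation release, the strand setting and the treatment of reads on several genes or on pseudogenes are not given in the sources used here, although GENCODE v44 lists 65 pseudogenes named after GAPDH, and 13 after PGAM1, none of them in the table. Coordinates, symbols, transcript lengths and overlaps came from GENCODE v44 (hg38), and promoters from RefSeq.

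Genes were filtered with filterByExpr and tested across all genes with edgeR 4.0.16 (quasi-likelihood, TMM, R 4.3.3), with the hairpin as its sole term, and p-values adjusted by Benjamini-Hochberg (threshold 0.05); the code was tested on simulated data. Log2 CPM used a prior count of 2. Intervals are the fold change ± the t quantile times its standard error. Isozyme shares are shares of raw counts, tested by exact permutation with scipy 1.17.1. Other genes named are isozyme partners, the calls and the smallest p of each list, and those marked as chosen later. The genes and lists were chosen with earlier results of these data known.

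The alternatives were other size factors, DESeq2 1.42.0, other filters, a replicate block, leaving out each library, the study's rule for DEGs and smooth offsets for GC content and length (mgcv). Same-numbered libraries deviated together in some pairs only (correlations of 0.138, -0.433 and 0.543 for numbers 1, 2 and 3), so the numbers were not taken to pair libraries.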

Additional observations from a re-analysis of the deposited data

How the results depend on the processing

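No gene of the 10 was called lower or higher under any alternative except without shControl replicate 1, so that the counts ran from 0 to 1 lower and from 0 to 3 higher over the fits without 1 library. The sign changed for genes near 0: PFKP was -0.024 with library size only and -0.011 with GC content and length taken out. Without 1 library each, PFKP ran from -0.054 to 0.115, PGK1 from -0.096 to 0.023, PKM from -0.134 to 0.162, LDHA from -0.073 to 0.01, PFKL from -0.21 to 0.16 and LDHB from -0.038 to 0.483.

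Of the 107 genes of the lists, the 2 lower and 1 higher calls became 1 lower with at least 10 counts in every library, 7 lower and 3 higher with DESeq2, 3 higher with DESeq2's size factors in edgeR, 2 higher with upper quartile factors or no filter, 23 lower and 8 higher with GC content and length taken out, and 0 and 0 by the study's DEG rule (absolute log2 fold change above 0.97). They ran from 0 to 30 lower and from 0 to 20 higher without 1 library, the largest without shControl replicate 1, where 2300 of all genes were lower and 1964 higher, against 354 and 46 with all libraries. Without shControl replicate 1, the 18 other isozymes held 4 lower and 6 higher calls, and the 9 regulators 4 and 1. The 20 pyruvate and lactate genes tested there held 4 and 3, and the 15 of gluconeogenesis and glycogen 2 and 3. With the replicate block, 4 list genes were lower and 0 of the 10 genes were called; SLC16A1 gained a call (0.71) and MYC and LOX lost their calls in it, at 0.67 and -0.85, and LOX also with library size only (-0.90) and with at least 10 counts in every library (-0.86). The cause of these shifts was not tested. Of the shares, that of the 10 genes in all counts differed by 0.0740 points, and from -0.0220 to 0.231 points without 1 library. The differences of the isozyme shares ran from -7.12 to -2.62 points for HK2, from -1.19 to 0.411 for PFKP, from -3.38 to -0.344 for ALDOA, from -0.863 to 0.0374 for LDHA, from 4.40 to 6.03 for SLC2A1 and from 0.236 to 0.357 for ENO1. The lowest count of the 10 genes in a library was 267, for ALDOA in shControl replicate 3, and the part of depth in these results was not tested. With 3 libraries a group, no exact permutation test could give a p below 0.1.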
